A study of Mus musculus with 6 samples.

Results

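The genes described here encode the machinery that shortens, decaps and degrades messenger RNA. They were chosen by symbol from the count table of mouse tail skin, where 70 of 18180 genes carried a name of the CCR4-NOT, PAN2-PAN3, PARN, decapping, LSM, XRN, exosome, UPF, SMG, poly(A)-binding, BTG or ZFP36 families. The rule used symbols alone, but it was set with earlier results of these data known. Of the 70, 65 have a role in RNA decay or RNA processing, and 5 zinc finger genes (Zfp362, Zfp365, Zfp366, Zfp367 and Zfp369) share only the spelling of Zfp36 and are kept apart below. Of the 70, 69 passed the low-count filter, and Zfp36l3 did not, with 0, 0 and 2 counts in the libraries labelled cKO and no count in the Ctrl libraries.

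RNA came from 2 groups of 3 libraries. The 3 libraries labelled cKO have the genotype Mettl3fl/fl;K14creERT2+/-, in which a tamoxifen-inducible Cre driven by the keratin 14 promoter of basal keratinocytes is meant to delete floxed Mettl3, the gene of the catalytic subunit of the RNA N6-methyladenosine (m6A) writer. The 3 Ctrl libraries have the genotype Mettl3fl/fl;K14creERT2-/- and carry the same floxed alleles without Cre. Mice were given tamoxifen on 5 consecutive days, and tail skin was taken 4 weeks later, from spontaneously inflamed areas in the Cre genotype and from normal tails in the controls, so genotype and inflamed tissue cannot be told apart. Skin cells in which this promoter is not active are not meant to be targeted by this Cre, and which cells carried the deletion was not measured here. Nothing in the labels ties the replicate libraries to different mice. A p-value here therefore speaks for library-to-library spread alone, which may be technical.

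Totals ran from 35855880 to 36113956 counts in the libraries labelled cKO and from 36115822 to 37043849 in the Ctrl libraries. Mettl3 itself had 569, 512 and 540 counts in the libraries labelled cKO, against 440, 389 and 337 counts in the Ctrl libraries. It was therefore higher where the label names its deletion, with a log2 fold change of 0.48 (SE 0.11) and an adjusted p of 0.000102 in edgeR's test. Each direction below therefore refers to the libraries labelled cKO. Counts were for the whole gene, and the floxed exons were not analysed separately here. Between libraries of a group, the chi-square of the counts per degree of freedom was 3.96 to 4.13 in all 6 pairs, above the value near 1 of sampling noise alone. Of 8 basal keratinocyte markers 4 rose and 4 fell. Their sum was 12977 to 13270 CPM of library totals in the libraries labelled cKO and 9149 to 9365 CPM in Ctrl libraries, mostly Krt14 (log2 fold change 0.89) and Krt5 (0.17), while Col17a1 and Dst had log2 fold changes of -0.64 and -0.68. Of 8 fibroblast markers 7 rose and 1 fell.

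A messenger RNA is usually degraded in an ordered way. Its poly(A) tail, covered by poly(A)-binding proteins, is first trimmed by PAN2-PAN3 and then removed by CCR4-NOT, the LSM1-7 ring binds the shortened end, DCP2 removes the cap, and XRN1 digests the body from the 5′ end, while the exosome digests it from the 3′ end. Adaptors bring this machinery to chosen transcripts: ZFP36 proteins bind AU-rich elements of cytokine transcripts, BTG proteins link poly(A)-binding protein to CCR4-NOT, UPF and SMG proteins act on transcripts with premature stop codons, and the m6A reader YTHDF2 recruits CCR4-NOT to methylated transcripts.

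Transcripts of the decay machinery shifted in both directions, and by small factors. Levels are given in CPM, the count scaled to a library of 1e+06 after TMM normalization, and a gene was called at an adjusted p under 0.05 in edgeR's quasi-likelihood test with Benjamini-Hochberg adjustment over all 15061 genes tested. Of the 69 tested genes 23 were higher in the libraries labelled cKO, 18 were lower, and 28 did not pass the test. The called share was 59.4%, where 61.4% of all genes tested were called, of which 30.8% were higher and 30.6% lower. The median absolute log2 fold change was 0.19 for the 69 genes and 0.32 for all genes tested. None of the 69 genes changed 2-fold, whereas 10.8% of all genes tested were called with at least that change. With at least a 1.5-fold change 4 were called (Lsm10, Lsm4, Smg8 and Pan2), or 5.80%, against 22.7% of all genes tested. Zfp366, of the 5 that share only the name, also changed 1.51-fold but was not called. Of the 8898 genes tested with levels between the 5th and 95th percentile of the machinery's, 9.70 to 152 CPM, 68.1% were called, 5.16% with at least a 2-fold change, and the median absolute log2 fold change was 0.25. The groups did not overlap in 45 of the 69 genes, or 65.2%, where 64.9% of all genes tested did not overlap. Counts of the 65 decay genes summed to between 3816 and 3866 per 1e+06 library counts in the libraries labelled cKO and between 3786 and 3815 in the Ctrl libraries.

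With an assumed biological coefficient of variation of 20%, in place of the 5.34% estimated from these libraries, Lsm10, Lsm4, Smg8 and Pan2 remained called (adjusted p of 0.00847, 0.00887, 0.0458 and 0.0379 in edgeR's likelihood ratio test), where 22.3% of all genes tested passed. In whole tissue, a change in the number of cells of a type and a change in RNA per cell cannot be told apart.

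**Figure D1:**
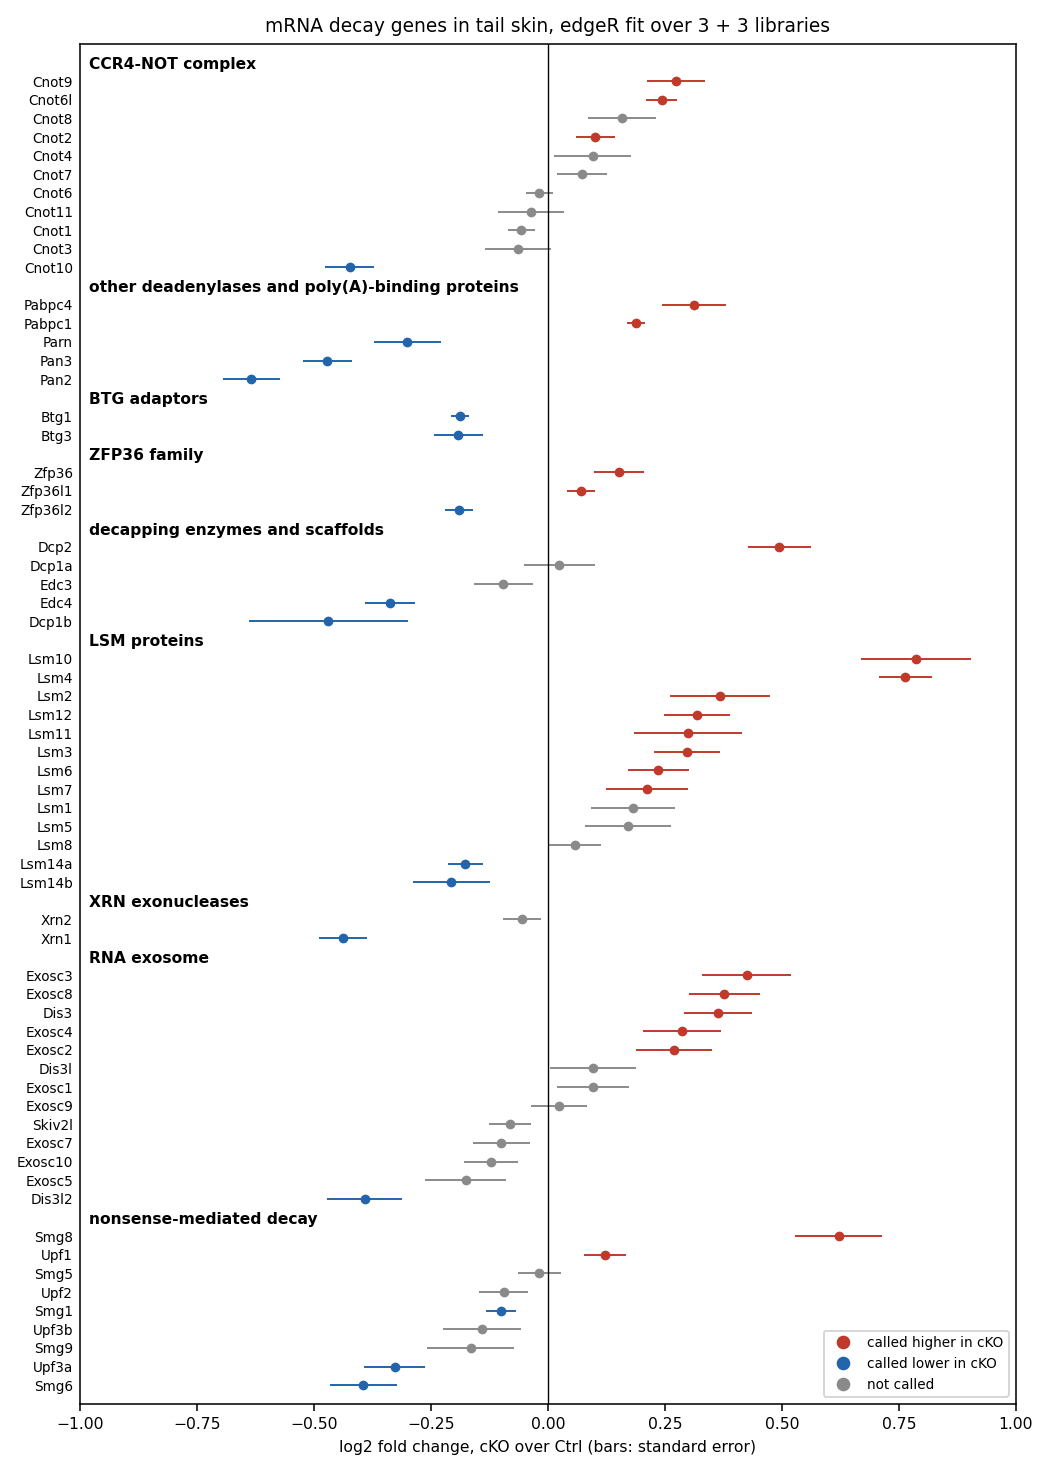
Log2 fold changes of 63 of the 64 tested decay genes, cKO over Ctrl, by role, with standard errors from edgeR's fit over 3 libraries a group; positive values are higher in the libraries labelled cKO. Most LSM genes and the 5 exosome genes called higher lie to the right of 0, Pan2, Pan3, Parn and Xrn1 to the left, and no gene reaches a change of 1 on the log2 scale.

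The promoters of 4 genes are shown: Lsm10 and Smg8, which rose by at least 1.5-fold, and Pan2 and Pan3, whose products form a single enzyme and which both fell. The sequences are RefSeq's, on GRCm38.p6, from 250 bases before to 50 bases after the first listed start site, 5′ to 3′ on the gene's strand. Capitals mark matches on either strand to any of 6 motifs. These were the ETS core with the letters CCGGAAG, the E-box with the letters CACGTG, the box named for its letters CCAAT, the NRF1 site, the GC box with the letters GGGCGG and the AP-1 site with the letters TGAGTCA.
Lsm10, chr4:126096403-126096702, plus strand: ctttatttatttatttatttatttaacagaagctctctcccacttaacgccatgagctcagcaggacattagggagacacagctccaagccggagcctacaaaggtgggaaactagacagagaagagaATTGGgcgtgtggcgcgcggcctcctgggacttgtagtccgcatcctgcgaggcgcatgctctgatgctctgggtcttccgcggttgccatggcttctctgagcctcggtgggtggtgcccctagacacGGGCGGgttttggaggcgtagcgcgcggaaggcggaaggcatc
Smg8, chr11:87086728-87087027, minus strand: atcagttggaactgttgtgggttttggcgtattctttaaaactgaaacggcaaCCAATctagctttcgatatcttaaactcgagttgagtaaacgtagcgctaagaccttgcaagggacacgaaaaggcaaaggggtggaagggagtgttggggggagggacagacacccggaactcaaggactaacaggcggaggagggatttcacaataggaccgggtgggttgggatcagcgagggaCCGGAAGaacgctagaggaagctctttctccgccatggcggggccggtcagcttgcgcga
Pan2, chr10:128303085-128303384, plus strand: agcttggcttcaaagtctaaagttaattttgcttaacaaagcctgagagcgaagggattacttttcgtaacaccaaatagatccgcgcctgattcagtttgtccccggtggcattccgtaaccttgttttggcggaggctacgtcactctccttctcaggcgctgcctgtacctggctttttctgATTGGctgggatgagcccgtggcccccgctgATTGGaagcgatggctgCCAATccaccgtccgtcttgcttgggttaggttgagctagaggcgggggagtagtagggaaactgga
Pan3, chr5:147429906-147430205, plus strand: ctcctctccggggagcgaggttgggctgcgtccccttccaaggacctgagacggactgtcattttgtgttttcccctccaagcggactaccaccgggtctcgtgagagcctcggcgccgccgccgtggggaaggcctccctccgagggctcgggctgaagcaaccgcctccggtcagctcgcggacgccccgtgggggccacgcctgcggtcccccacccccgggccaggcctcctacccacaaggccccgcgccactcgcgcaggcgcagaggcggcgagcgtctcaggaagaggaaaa
The window of Pan2 held 3 CCAAT matches, that of Lsm10 held 1 CCAAT and 1 GC box match, and that of Smg8 held 1 ETS and 1 CCAAT match, while none of the 6 motifs was found in the window of Pan3. Promoters were listed for 53 of the 65 decay genes. A GC box stood in 73.6% of these 53, against 60.4% of the promoters of all genes tested, an ETS core in 24.5%, against 16.1%, and a CCAAT box in 37.7%, against 38.3%. Among promoters of called genes the GC box stood in 15 of 18 that rose and 9 of 15 that fell, and the ETS core in 4 of 18 and 5 of 15. NRF1 sites stood in 5.66% of the 53, against 1.83%, E-boxes in 5.66%, against 9.57%, and AP-1 sites in 0 of the 53, against 4.08%. These matches describe the letters of the window and show no binding.

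Pan2, Pan3 and Parn, for deadenylase subunits outside CCR4-NOT, fell, and the poly(A)-binding protein genes Pabpc1 and Pabpc4 rose. Some other genes described as deadenylases lie outside the families chosen, among the further cofactors. Of these Noct, Pde12 and Toe1 rose, with log2 fold changes of 1.11, 0.69 and 0.41. Angel1 and Angel2, also listed there, had log2 fold changes of -0.13 and -0.14 (adjusted p of 0.409 and 0.0207 in edgeR's test). Pan2 (NCBI gene 103135), the nuclease subunit of PAN2-PAN3, had 32.3, 29 and 28.8 CPM in the libraries labelled cKO, against 45.7, 46.8 and 47.4 CPM in the Ctrl libraries. All 3 libraries labelled cKO lay below all 3 Ctrl libraries, and the log2 fold change was -0.63 (SE 0.061, adjusted p = 5.86e-15). Pan3, the adaptor subunit that binds poly(A)-binding protein, had 43.7, 49.7 and 43.6 CPM in the libraries labelled cKO, against 64.5, 60.5 and 64.9 CPM in the Ctrl libraries, again without overlap (log2 fold change -0.47, SE 0.053, adjusted p = 2.27e-12). Parn, a cap-binding poly(A)-specific nuclease that also trims small RNAs, had 24.1, 25.1 and 25.8 CPM in the libraries labelled cKO, against 32.9, 31.0 and 28.6 CPM in the Ctrl libraries (log2 fold change -0.30, SE 0.072, adjusted p = 0.000213). Without overlap in the other direction, Pabpc1, the main cytoplasmic poly(A)-binding protein gene, had 494, 491 and 498 CPM in the libraries labelled cKO, against 426, 437 and 437 CPM in the Ctrl libraries (log2 fold change 0.19, SE 0.019, adjusted p = 2.92e-14). Pabpc4, a relative induced in activated T cells, averaged 34.2 ± 2.73 CPM in the libraries labelled cKO and 27.5 ± 0.708 CPM in Ctrl libraries (SD, n = 3 each, as in all later means; log2 fold change 0.31, SE 0.069). Pabpc1 was the most abundant gene of the machinery per length in both groups, at 187 ± 1.22 FPKM in the libraries labelled cKO and 161 ± 2.64 FPKM in the Ctrl libraries. Pabpc1 has processed copies elsewhere in the genome, and how reads shared with them were counted is not known, so its values are uncertain.

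In the CCR4-NOT complex, the main deadenylase, 3 of 11 genes rose, 1 fell and 7 were not called (median log2 fold change 0.07, against 0.00 for all genes tested). Thus 27.3% were higher and 9.09% lower, against 30.8% and 30.6% of all genes tested. Cnot1, the scaffold on which the other subunits assemble, had 193, 180 and 193 CPM in the libraries labelled cKO, against 189, 198 and 200 CPM in the Ctrl libraries, with overlapping groups (log2 fold change -0.06, SE 0.028, adjusted p = 0.0777). It passed the test without Ctrl replicate 1 (adjusted p = 0.0236 in edgeR's test). Cnot10, which binds the N-terminal part of the scaffold with CNOT11, fell to 45.0, 43.5 and 43.2 CPM in the libraries labelled cKO, against 57.9, 58.6 and 60.1 CPM in the Ctrl libraries. The groups were well apart, at a log2 fold change of -0.42 (SE 0.052, adjusted p = 4.58e-11). Its partner Cnot11 had a log2 fold change of -0.04 (SE 0.071, adjusted p = 0.677), with 27.2 ± 0.474 CPM in the libraries labelled cKO and 27.9 ± 1.08 CPM in Ctrl libraries.

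Among the catalytic subunits, Cnot6l rose to 139, 136 and 138 CPM in the libraries labelled cKO, against 118, 118 and 114 CPM in the Ctrl libraries (log2 fold change 0.24, SE 0.033, adjusted p = 9.22e-10). Its close relative Cnot6 had 151 ± 1.79 CPM in the libraries labelled cKO and 153 ± 0.984 CPM in Ctrl libraries (adjusted p = 0.621) and was the most abundant gene of the complex per length. Cnot9, the subunit that docks GW182 and other adaptors, had 45.1, 50.8 and 47.8 CPM in the libraries labelled cKO, against 35.1, 44.4 and 39.5 CPM in the Ctrl libraries (log2 fold change 0.27, SE 0.062, adjusted p = 0.000117). The lowest library labelled cKO was close to the highest Ctrl library. Cnot2 of the NOT module rose by 0.10 on the log2 scale (SE 0.041, adjusted p = 0.026), a call lost without cKO replicate 1 or Ctrl replicate 3 (adjusted p of 0.163 and 0.161) and by DESeq2 (adjusted p = 0.0564). Cnot8, one of the other catalytic subunits, had a log2 fold change of 0.16 and an adjusted p of 0.0525 in edgeR's test. This adjusted p became 0.00566 without Ctrl replicate 1 and 0.0407 with a replicate block. Cnot8 was also called by limma-voom, with no count filter and with a filter of 1 CPM in 3 libraries. Cnot3, Cnot4 and Cnot7 had log2 fold changes of -0.06, 0.10 and 0.07 and adjusted p of 0.448, 0.317 and 0.242.

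**Figure D2:**
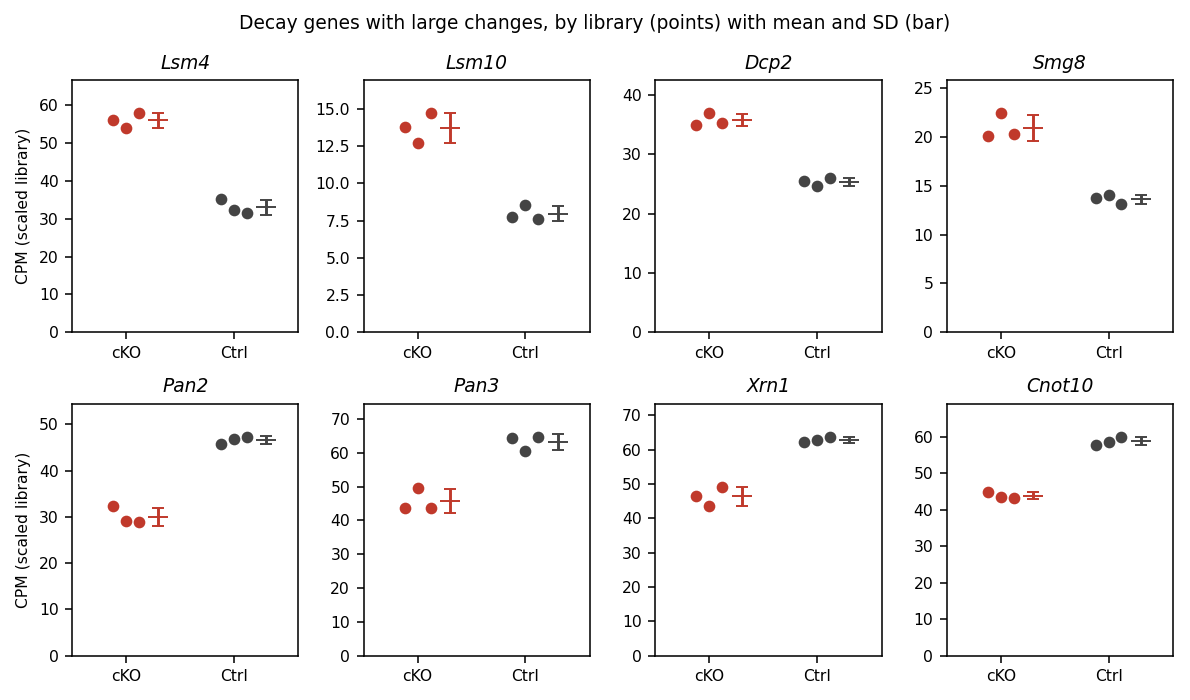
CPM of 8 decay genes in each library (points), with the mean and SD of the 3 libraries of a group (bar), libraries labelled cKO on the left and Ctrl on the right of each panel, on axes that start at 0. Lsm4, Lsm10, Dcp2 and Smg8 are higher and Pan2, Pan3, Xrn1 and Cnot10 lower in the libraries labelled cKO, with no overlap between groups in any panel.

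The adaptor genes changed by small factors. Btg1, an antiproliferative gene that is abundant in resting lymphocytes and was second in level per length, had 407, 401 and 408 CPM in the libraries labelled cKO, against 459, 471 and 453 CPM in the Ctrl libraries (log2 fold change -0.19, SE 0.020, adjusted p = 1.76e-13). Its relative Btg3 had 46.7, 45.7 and 46.0 CPM in the libraries labelled cKO, against 53.8, 52.0 and 52.3 CPM in the Ctrl libraries (log2 fold change -0.19, SE 0.052, adjusted p = 0.00113). Both BTG genes were lower in every library labelled cKO, beside lymphocyte markers that summed to 16 to 17 CPM of library totals in the libraries labelled cKO and 5.40 to 6.62 CPM in Ctrl libraries, of which 6 of 10 tested rose. Their part in the BTG values was not tested. In the ZFP36 family, Zfp36, which encodes tristetraprolin, had 54.4, 58.2 and 50.5 CPM in the libraries labelled cKO, against 49.1, 48.5 and 49.2 CPM in the Ctrl libraries. All libraries labelled cKO were above the Ctrl libraries, by a log2 fold change of 0.15 (SE 0.053, adjusted p = 0.0106), but the call was lost without cKO replicate 2 (log2 fold change 0.10, adjusted p = 0.129). Zfp36l1, the most abundant of the family per length, had 152, 149 and 151 CPM in the libraries labelled cKO, against 147, 141 and 143 CPM in the Ctrl libraries (log2 fold change 0.07, adjusted p = 0.0368), and this call was lost without cKO replicate 1, cKO replicate 3, Ctrl replicate 2 or Ctrl replicate 3, at adjusted p of 0.0913, 0.0703, 0.142 and 0.0759, and by DESeq2 (adjusted p = 0.0617). Zfp36l2 fell, with 139, 143 and 138 CPM in the libraries labelled cKO, against 157, 163 and 159 CPM in the Ctrl libraries (log2 fold change -0.19, SE 0.030, adjusted p = 1.16e-07). Of 15 immediate-early genes, the class of rapidly induced genes to which Zfp36 belongs, 7 rose and 7 fell (46.7% each). Of all genes tested 30.8% were higher and 30.6% lower. The summed level of the immediate-early genes was 1008 to 1014 CPM of library totals in the libraries labelled cKO and 967 to 970 CPM in Ctrl libraries. The part of these genes in the Zfp36 values was not tested.

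ZFP36 proteins bind the heptamer UAUUUAU, and the first such site in the 3′ untranslated region of the ZFP36 genes and of 3 cytokine genes is shown because cytokine transcripts with such sites are the known targets of these proteins. The sequences are from GENCODE M21 transcripts, written as DNA, with TATTTAT in capitals.
Zfp36: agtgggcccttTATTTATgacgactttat
Zfp36l1: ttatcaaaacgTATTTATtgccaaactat
Zfp36l2: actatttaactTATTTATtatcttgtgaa
Tnf: cagcccccctcTATTTATatttgcactta
Il1b: aaccacttaccTATTTATttatgtattta
Cxcl2: gagagttcactTATTTATttatctatgta
Each of the 3 ZFP36 genes held 3 such heptamers, Tnf held 8, Il1b held 3 and Cxcl2 held 7. The heptamer stood in 13 of 64 decay genes, or 20.3%, in 16 of 19 AU-rich transcripts that were matched, and in 23.1% of all 19511 genes with such a region. The AU-rich list was drawn up as transcripts of this kind, so its high share follows from its making. Of the 20 listed AU-rich transcripts 18 were tested, 14 were called higher and 4 were not called (median log2 fold change 1.40, against 0.00 for all genes tested). The share higher was 77.8% of those tested, against 30.8% of all genes tested. Cxcl2 averaged 21.9 ± 1.30 CPM in the libraries labelled cKO and 0.657 ± 0.351 CPM in Ctrl libraries (log2 fold change 5.05, SE 0.17), Il1b 46.2 ± 2.97 CPM in the libraries labelled cKO and 1.74 ± 0.282 CPM in Ctrl libraries (log2 fold change 4.73, SE 0.11), with Il6 at 1.34 ± 0.195 CPM in the libraries labelled cKO and 0.0822 ± 0.0718 CPM in Ctrl libraries, where it had 6, 2 and 1 counts. Tnf rose less, with a log2 fold change of 1.37 (SE 0.32, adjusted p = 0.000158). Il10, Myc, Dusp1 and Plau had adjusted p of 0.261, 0.114, 0.654 and 0.296. Beside these transcripts, the 12 listed neutrophil markers summed to 3534 to 3592 CPM in the libraries labelled cKO and 102 to 109 CPM in Ctrl libraries, and 8 of 8 tested rose. Nearly all of that sum was S100a8 (1450 ± 34.7 CPM in the libraries labelled cKO and 43.5 ± 1.5 CPM in Ctrl libraries) and S100a9 (2039 ± 18.5 CPM in the libraries labelled cKO and 53.4 ± 2.17 CPM in Ctrl libraries), which inflamed keratinocytes also express. Csf3r, the receptor gene of the neutrophil growth factor G-CSF, had 11.6 ± 0.740 CPM in the libraries labelled cKO and 1.74 ± 0.425 CPM in Ctrl libraries, and Ly6g, Mpo, Elane and Cd177 had too few counts to test. All 12 monocyte and macrophage markers rose (summed level 1324 to 1359 CPM, against 884 to 905 CPM in Ctrl libraries). The part of these cells in the cytokine values was not tested.

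In the decapping group, the enzyme rose while a scaffold and an activator fell. Dcp2 (NCBI gene 70640), which hydrolyses the cap, had 35.0, 37.0 and 35.4 CPM in the libraries labelled cKO, against 25.6, 24.6 and 26.0 CPM in the Ctrl libraries. The groups were far apart, with a log2 fold change of 0.49 (SE 0.067, adjusted p = 1.42e-09). Edc4, the scaffold that joins DCP2 to its activator, which was also the most abundant of the group per length, fell to 44.3, 44.2 and 44.2 CPM in the libraries labelled cKO, against 55.9, 53.2 and 58.6 CPM in the Ctrl libraries (log2 fold change -0.34, SE 0.053, adjusted p = 6.81e-08). Of the DCP2 activators, Dcp1b had 3.79, 4.13 and 5.49 CPM in the libraries labelled cKO, against 6.08, 5.58 and 6.92 CPM in the Ctrl libraries (log2 fold change -0.47, SE 0.17, adjusted p = 0.014). Dcp1b had 137 to 254 counts a library, and its call was lost without cKO replicate 1, cKO replicate 2 or Ctrl replicate 3 (adjusted p of 0.0891, 0.0536 and 0.0842), and by limma on log2(FPKM + 1) without a filter (adjusted p = 0.0595). The more abundant Dcp1a had a log2 fold change of 0.02 (SE 0.076, adjusted p = 0.795), and Edc3, another enhancer of decapping, -0.10 (SE 0.063, adjusted p = 0.19). The gene model of Edc3 overlaps Clk3 on the opposite strand, which fell (log2 fold change -0.94).

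The LSM genes were the role group with the most genes higher, 8 of 13 (61.5%), with 2 lower and 3 not called (median log2 fold change 0.24). Of all genes tested 30.8% were higher. The LSM and exosome groups were the largest, with 13 genes each, and only the ZFP36 family had a larger share higher (2 of 3). All 8 genes of the ring proteins, which form the cytoplasmic LSM1-7 decay ring and the nuclear LSM2-8 ring on U6 RNA, had positive log2 fold changes, and 5 of them (Lsm2, Lsm3, Lsm4, Lsm6 and Lsm7) were called higher (median 0.22). Lsm4 (NCBI gene 50783) had 56.1, 53.9 and 57.9 CPM in the libraries labelled cKO, against 35.2, 32.3 and 31.4 CPM in the Ctrl libraries. No library labelled cKO came near the Ctrl range, and the log2 fold change was 0.76 (SE 0.057, adjusted p = 6.78e-20). The next largest in the ring was Lsm2, with 13.2, 15.6 and 15.8 CPM in the libraries labelled cKO, against 11.7, 11.2 and 11.7 CPM in the Ctrl libraries (log2 fold change 0.37, SE 0.11, adjusted p = 0.00191). Both Lsm3 (log2 fold change 0.30, SE 0.071) and Lsm6 (0.24, SE 0.065) also rose. Lsm7 had 0.21 (SE 0.088, adjusted p = 0.0322), a call lost by DESeq2 (adjusted p = 0.0524) and without cKO replicate 2, cKO replicate 3, Ctrl replicate 1 or Ctrl replicate 2, at adjusted p of 0.0547, 0.122, 0.143 and 0.0911. Lsm1, found only in the cytoplasmic ring, had a log2 fold change of 0.18 (SE 0.089, adjusted p = 0.0702), and Lsm8, found only in the nuclear ring, 0.06 (SE 0.056, adjusted p = 0.386). Lsm5 had 0.17 (SE 0.091, adjusted p = 0.0975) and passed without Ctrl replicate 3 (adjusted p = 0.0488). Lsm8 was the most abundant LSM gene per length, at 59.8 ± 2.13 FPKM in the libraries labelled cKO and 56.5 ± 1.96 FPKM in the Ctrl libraries.

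Of the LSM genes outside the rings, Lsm10, which with Lsm11 belongs to the U7 particle that matures histone transcripts, had 13.8, 12.7 and 14.7 CPM in the libraries labelled cKO, against 7.77, 8.54 and 7.60 CPM in the Ctrl libraries. This was the largest fold change among the 69 genes tested, 0.79 on the log2 scale (SE 0.12, adjusted p = 1.65e-08), without overlap. Lsm11 averaged 11.8 ± 0.620 CPM in the libraries labelled cKO and 9.59 ± 0.221 CPM in Ctrl libraries (log2 fold change 0.30, SE 0.12, adjusted p = 0.0206), and its call was lost without cKO replicate 2 or Ctrl replicate 2 (adjusted p of 0.0713 and 0.053). Lsm12 rose by 0.32 on the log2 scale (SE 0.071). Lsm14a, a protein of cytoplasmic processing bodies, fell, with 92.0, 87.4 and 96.1 CPM in the libraries labelled cKO, against 102, 106 and 103 CPM in the Ctrl libraries (log2 fold change -0.18, SE 0.038, adjusted p = 4.96e-05). Its relative Lsm14b overlapped between groups (log2 fold change -0.21, adjusted p = 0.0259) and was lost without cKO replicate 1, cKO replicate 2 or Ctrl replicate 1, at log2 fold changes of -0.19, -0.15 and -0.09 and adjusted p of 0.0817, 0.154 and 0.426, by DESeq2 (adjusted p = 0.0806), with upper-quartile scaling (0.0576) and by limma on log2 FPKM (0.157 to 0.246). Beside the LSM genes, 15 of 15 listed cell cycle genes rose, with a summed level of 871 to 874 CPM of library totals in the libraries labelled cKO and 447 to 470 CPM in Ctrl libraries, and their part in the LSM values was not tested.

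Of the XRN exonuclease genes Xrn1 fell and Xrn2 was not called. Xrn1, which digests decapped RNA in the cytoplasm, fell to 46.6, 43.6 and 49.0 CPM in the libraries labelled cKO, against 62.1, 62.6 and 63.8 CPM in the Ctrl libraries. The groups did not overlap, and the log2 fold change was -0.44 (SE 0.051, adjusted p = 1.13e-11). Xrn2, the nuclear enzyme that also acts in transcription termination, had 80.7, 77.0 and 82.2 CPM in the libraries labelled cKO, against 81.2, 84.7 and 83.2 CPM in the Ctrl libraries (log2 fold change -0.05, SE 0.041, adjusted p = 0.253).

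Within the RNA exosome and its partners, a group that includes the related nuclease gene Dis3l2, 5 of 13 genes rose and 7 were not called (median log2 fold change 0.10). The shares higher and lower were 38.5% and 7.69%, against 30.8% and 30.6% of all genes tested. The 1 gene that fell was Dis3l2, whose product acts without the exosome. Of the 8 core genes measured, Exosc3, Exosc8, Exosc4 and Exosc2 rose and the other 4 were not called. Exosc3, a cap subunit, had 19.1, 17.9 and 20.7 CPM in the libraries labelled cKO, against 12.9, 16 and 14.1 CPM in the Ctrl libraries (log2 fold change 0.42, SE 0.096, adjusted p = 8.92e-05). Exosc8 of the ring had 31.9, 27.3 and 27.8 CPM in the libraries labelled cKO, against 20.7, 22.3 and 23.9 CPM in the Ctrl libraries, also without overlap (log2 fold change 0.38, SE 0.077). Exosc4 rose by 0.29 on the log2 scale (adjusted p = 0.00219, SE 0.083), a call lost without cKO replicate 1 (adjusted p = 0.061), and it overlaps Oplah on the opposite strand, which fell (log2 fold change -0.76). Exosc2 rose by 0.27 on the log2 scale (adjusted p = 0.00301, SE 0.081). Exosc9, the most abundant core gene per length, had 24.1 ± 0.224 FPKM in the libraries labelled cKO and 23.3 ± 0.492 FPKM in Ctrl libraries (adjusted p = 0.748), and its gene model overlaps the cyclin gene Ccna2 on the opposite strand, which rose (log2 fold change 1.01). The log2 fold changes of Exosc5 and Exosc7 were -0.18 and -0.10 (adjusted p of 0.0742 and 0.153), and that of Exosc7 passed without Ctrl replicate 2 (adjusted p = 0.0469). Exosc1 had a log2 fold change of 0.10 (adjusted p = 0.282).

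Among the nucleases and helicase that work with the core, Dis3, the processive nuclease of the nuclear exosome, rose to 30.1, 30.8 and 29.2 CPM in the libraries labelled cKO, against 23.3, 23.2 and 23.5 CPM in the Ctrl libraries (log2 fold change 0.36, SE 0.072, adjusted p = 1.08e-05). Its cytoplasmic counterpart Dis3l had 18.5 ± 1.97 CPM in the libraries labelled cKO and 17.3 ± 1.26 CPM in Ctrl libraries (adjusted p = 0.373). Dis3l2, which acts without the exosome on uridylated RNA, fell to 24.6, 18.5 and 21.6 CPM in the libraries labelled cKO, against 27.1, 29.6 and 28.2 CPM in the Ctrl libraries (log2 fold change -0.39, SE 0.080, adjusted p = 1.99e-05). The 3 members of this family thus had fold changes above, near and below 0. Exosc10, a nuclear exosome nuclease, and Skiv2l, the helicase that feeds RNA to the cytoplasmic exosome, had log2 fold changes of -0.12 and -0.08 (adjusted p of 0.0638 and 0.111).

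In nonsense-mediated decay 2 of 10 genes rose (20%), 3 fell (30%) and 5 were not called (median log2 fold change -0.10). Among all genes tested 30.8% were higher and 30.6% lower. Upf1, the helicase at the centre of the pathway, had 75.5, 73.7 and 73.0 CPM in the libraries labelled cKO, against 64.7, 70.5 and 68.9 CPM in the Ctrl libraries (log2 fold change 0.12, SE 0.045, adjusted p = 0.014), and its call was lost without cKO replicate 1 or Ctrl replicate 1 (adjusted p of 0.0529 and 0.113). Smg8, a regulator of the UPF1 kinase SMG1, rose most, with 20.1, 22.4 and 20.3 CPM in the libraries labelled cKO, against 13.7, 14 and 13.1 CPM in the Ctrl libraries. The groups were far apart, with a log2 fold change of 0.62 (SE 0.092, adjusted p = 1.57e-08). Its binding partner Smg9 was not called, at 15.8 ± 0.765 CPM in the libraries labelled cKO and 17.7 ± 1.29 CPM in Ctrl libraries (log2 fold change -0.16, adjusted p = 0.121). The kinase gene Smg1 had 138, 148 and 156 CPM in the libraries labelled cKO, against 159, 156 and 159 CPM in the Ctrl libraries, with groups that overlapped (log2 fold change -0.10, SE 0.032, adjusted p = 0.00483), and its call was lost without cKO replicate 1 (log2 fold change -0.06, adjusted p = 0.157) and by limma on log2 FPKM (adjusted p of 0.241 to 0.272). Smg6, the endonuclease that cuts near the stop codon, fell to 27.1, 23.1 and 25.7 CPM in the libraries labelled cKO, against 31.1, 34.1 and 34.6 CPM in the Ctrl libraries (log2 fold change -0.39, SE 0.071, adjusted p = 1.69e-06). Smg5, which acts by recruiting decay enzymes, had 68.1 ± 0.545 CPM in the libraries labelled cKO and 69.0 ± 3.56 CPM in Ctrl libraries (adjusted p = 0.748). Upf3a fell (30.8, 27.6 and 27.9 CPM in the libraries labelled cKO, against 37.1, 35.8 and 35.4 CPM in the Ctrl libraries, log2 fold change -0.33, SE 0.066), and Upf3b and Upf2 had log2 fold changes of -0.14 and -0.09 (adjusted p of 0.137 and 0.113).

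Of 8 transcripts listed as sensitive to nonsense-mediated decay that are not part of the machinery, 3 rose (37.5%) and 4 fell (50%). Of all genes tested 30.8% were higher and 30.6% lower. Atf3, Tbl2 and Atf4 had log2 fold changes of 0.52, 0.41 and 0.22, and Gadd45a, Upp1, Gadd45b and Nat9 had -0.64, -0.43, -0.28 and -0.23. Gadd45a, a growth arrest gene used as a readout of the pathway, averaged 22.8 ± 2.67 CPM in the libraries labelled cKO and 35.4 ± 1.04 CPM in Ctrl libraries (SE 0.073, adjusted p = 5.04e-12). Ddit3 was not called (adjusted p = 0.215).

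The balance between genes with related products was described as shares, on which 3 against 3 libraries cannot reach a p under 0.05. Among 10 pairs or families, the share of a gene in the summed FPKM of its family did not overlap between groups in 4, and no background of other gene pairs was computed. Cnot6l made up 38.9% ± 0.207 of Cnot6l and Cnot6 in the libraries labelled cKO and 34.7% ± 0.365 in Ctrl libraries (SD, n = 3 each). Xrn1 made up 32.7% ± 0.567 of Xrn1 and Xrn2, against 38.8% ± 0.476 in Ctrl libraries. Dcp1b made up 20.7% ± 3.72 of Dcp1b and Dcp1a, against 26.8% ± 1.64 in Ctrl libraries. Zfp36 made up 25.5% ± 1.30 of the 3 tested ZFP36 genes, against 22.9% ± 0.190 in Ctrl libraries. Each of these 4 had an exact two-sided permutation p of 0.1, the smallest that 3 against 3 libraries allow, and 0.25 after adjustment over the 10. The shares of Btg3 in Btg3 and Btg1 (28.6% ± 0.158 against 28.6% ± 0.628 in Ctrl libraries) and of Lsm14b in Lsm14b and Lsm14a (21.0% ± 0.771 against 21.3% ± 2.52) differed by less than the spread between libraries. FPKM rests on the authors' gene lengths, so the levels of the shares depend on them.

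**Figure D3:**
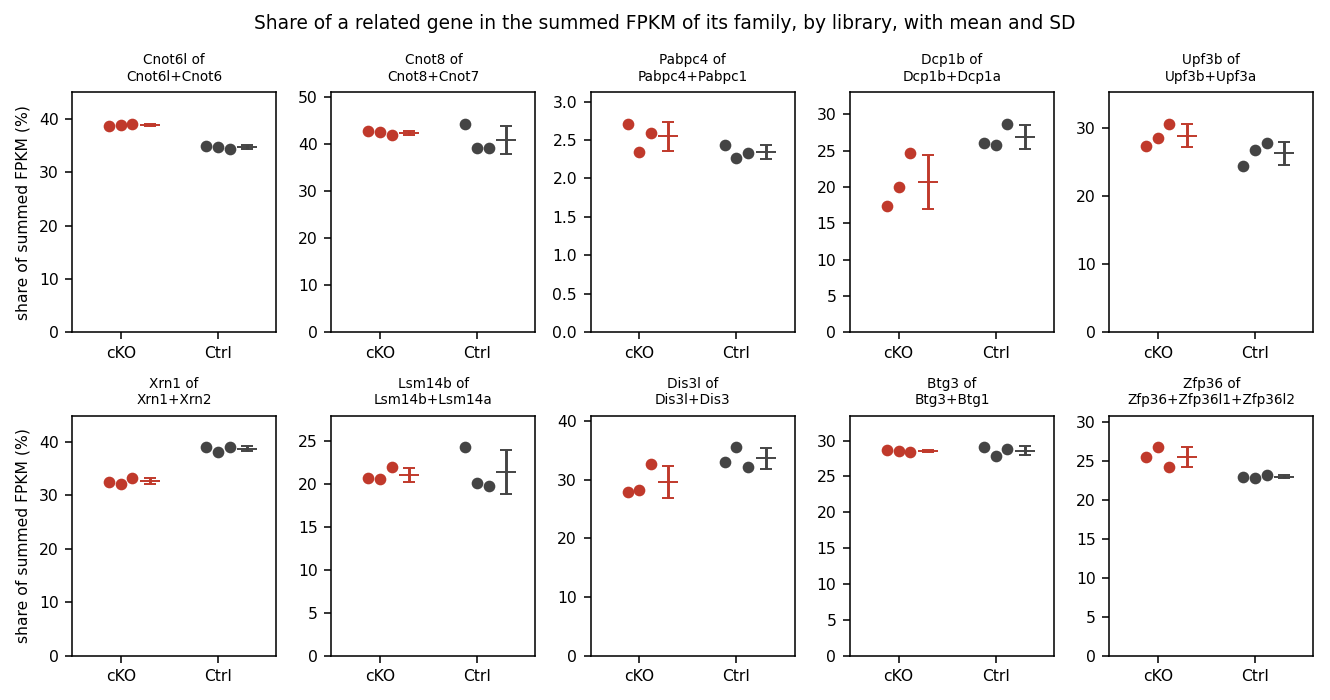
Share of a gene in the summed FPKM of its family, in percent, for 10 pairs or families in each library (points), with the mean and SD of the group (bar), libraries labelled cKO on the left and Ctrl on the right, on axes that start at 0. The groups do not overlap for Cnot6l, Dcp1b, Xrn1 and Zfp36.

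The genes that rose were shorter than those that fell. The median length behind the FPKM values was 2667 bp for the 23 genes higher, 4098 bp for the 18 lower and 5102 bp for the 28 not called. Over all genes tested, the median was 3164 bp for genes higher and 3668 bp for genes lower. The median log2 fold change was 0.04 in the shortest of 5 equal bins of length, 0.05 in the next and -0.08 in the longest. When the trend of fold change on length was removed, an alternative chosen after the data were seen, 21 of the 69 genes were higher and 20 lower. Cnot2, Exosc2, Exosc4 and Zfp36 then missed the threshold (adjusted p of 0.402, 0.0648, 0.0551 and 0.474), Zfp36l1 and Smg1 had log2 fold changes of -0.010 and 0.019 and were no longer called, and Lsm5, Exosc5, Exosc10, Skiv2l, Cnot4 and Zfp369 were called, with log2 fold changes of 0.59, -0.26, -0.17, -0.14, 0.26 and 0.51. Lsm5, of 501 bp, had 0.17 before, so the trend removed was negative at that length. The trend therefore did not run in one direction from short to long genes.

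**Figure D4:**
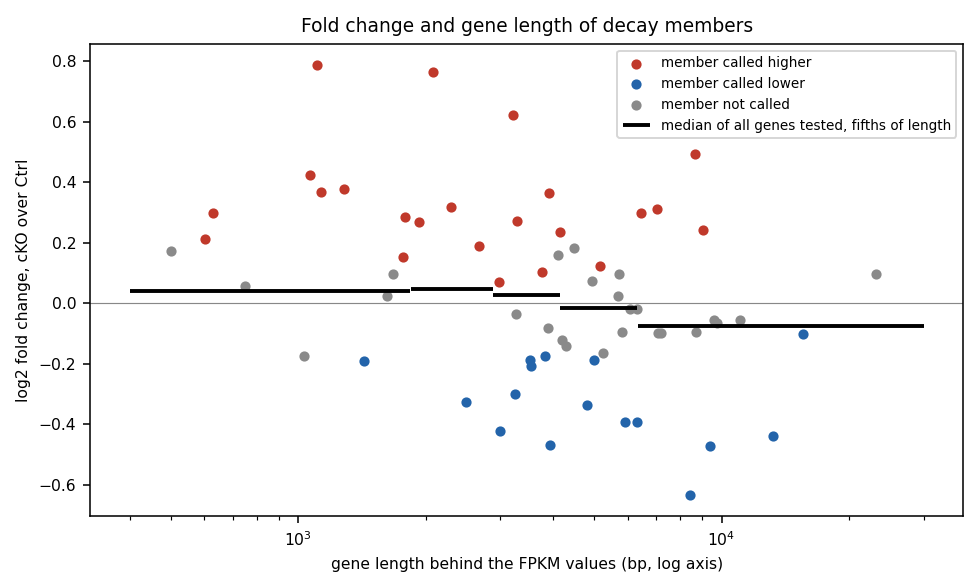
Log2 fold change, cKO over Ctrl, of the 64 tested decay genes against gene length (log axis), with the median of all genes tested in 5 equal bins of length as black lines, drawn over the plotted range. Genes called higher have a median length of 2667 bp over all 23, and the background medians are 0.04 in the shortest bin, 0.05 in the next and -0.08 in the longest.

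Genes of the wider pathway also went both ways, as did all genes tested, of which 30.8% were higher and 30.6% lower. Of 30 further decay cofactors 10 rose (33.3%), 13 fell (43.3%) and 7 were not called (median log2 fold change -0.09). Noct, a circadian gene first described as a deadenylase, averaged 47.5 ± 1.84 CPM in the libraries labelled cKO and 22.1 ± 2.75 CPM in Ctrl libraries (log2 fold change 1.11, SE 0.068, adjusted p = 6.17e-24), and Pde12, a mitochondrial deadenylase gene, 118 ± 4.71 CPM in the libraries labelled cKO and 73.5 ± 3.73 CPM in Ctrl libraries (log2 fold change 0.69, SE 0.040). Dcps, the enzyme that clears the cap left by the exosome, had a log2 fold change of 0.48 (SE 0.12). Tent4a and Tent4b, whose products extend poly(A) tails with mixed nucleotides, fell by 0.39 and 0.36 on the log2 scale, and Tut7, a terminal uridylyltransferase gene, had a log2 fold change of -0.34 (SE 0.031, adjusted p = 6.55e-16). Of 17 sequence-specific decay factors 5 rose and 5 fell (29.4% each, median 0.07). Rc3h1, which encodes roquin-1, a protein that destabilises inflammatory transcripts, fell most among them, with 57.5 ± 2.69 CPM in the libraries labelled cKO and 105 ± 3.29 CPM in Ctrl libraries (log2 fold change -0.88, SE 0.043, adjusted p = 6.47e-30). Pum2 and Tnrc6a, for a Pumilio protein and a GW182 protein of microRNA silencing, had log2 fold changes of -0.43 and -0.34. Zc3h12a, the gene of the cytokine transcript nuclease regnase-1, and Elavl1, the gene of the stabilising AU-binding protein HuR, rose by 0.39 (SE 0.073) and 0.29 (SE 0.056) on the log2 scale, and Ythdf2 rose by 1.11 (SE 0.042). Of 9 exon junction and termination genes Magohb, Rbm8a and Gspt1 (33.3%) rose, by 0.68, 0.23 and 0.16 on the log2 scale, and Casc3 (11.1%) fell by 0.23.

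**Figure D5:**
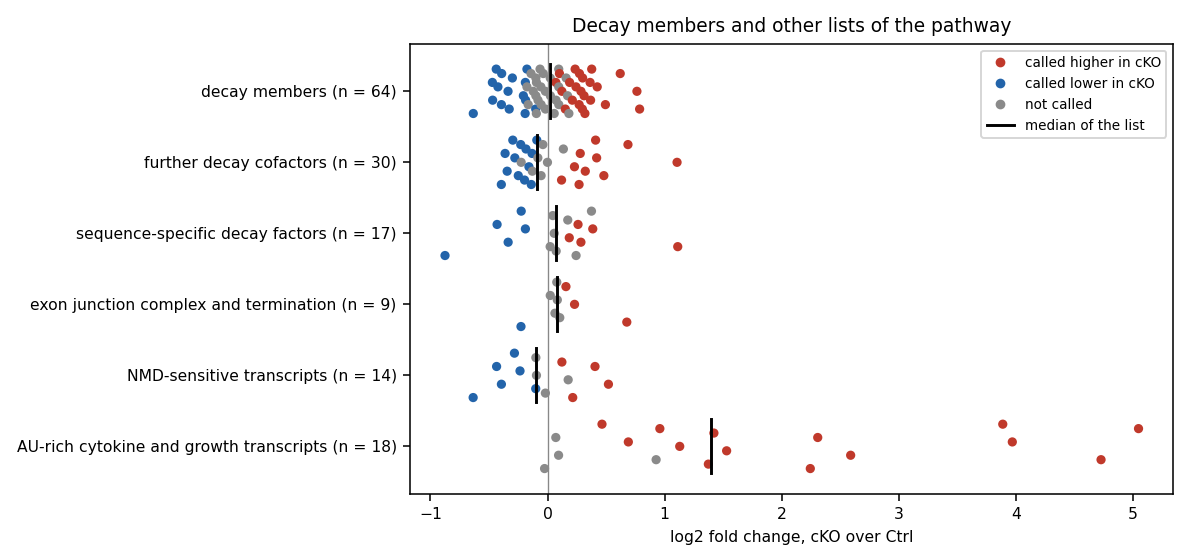
Log2 fold changes, cKO over Ctrl, of the tested decay genes and of 5 other lists of the pathway (points, colored by call in edgeR's test), with the median of each list as a black line. The AU-rich cytokine and growth transcripts extend to a log2 fold change of 5.05, while the machinery lies between -0.63 and 0.79.

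The 5 zinc finger genes that share only the name were not part of the machinery. Zfp362 fell by 0.44 on the log2 scale (adjusted p = 9.34e-06, SE 0.087), Zfp365 fell by 0.51 (adjusted p = 0.000761, SE 0.14; lost by limma on log2(FPKM + 1) without a filter, adjusted p = 0.0523), and Zfp366, Zfp367 and Zfp369 had adjusted p of 0.246, 0.903 and 0.0699. Zfp369 passed without Ctrl replicate 2 (adjusted p = 0.035).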

How the data were processed

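RNA was extracted with TRIzol and libraries were made with a VAHTS Universal V5 kit, per the labels' protocols. The authors deposited raw counts per gene and FPKM for the same 18180 genes. Reads were handled with fastp, HISAT2 and HTSeq on mm39, per the submitters' processing notes, but the sources used here give no versions, annotation, strand setting or handling of multi-mapped reads. Reads from genes on opposite strands therefore cannot be told apart. In GENCODE M21, 15 of the 70 genes overlap an exon of a protein-coding gene. These overlaps were found by exon positions on GRCm38, while the reads were handled on mm39. The deposited FPKM equal counts over 1 whole-number length per gene and the column total (relative tolerance 1e-06). No value column was left unmapped.

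The count test was edgeR 4.0.16 in R 4.3.3 (filterByExpr with a minimum count of 10 and total of 15, TMM, robust quasi-likelihood, group as the only term), and the steps were tested on simulated counts. Standard errors are the log2 fold change over the square root of F. All tests were two-sided. At 3 counts, the limit that a count of 0 allows, a library has 0.081 to 0.0837 CPM, covering counting error only. Median coefficients of variation of the 69 genes were 4.52% in the libraries labelled cKO and 4.11% in Ctrl libraries. Alternatives used DESeq2 1.42.0, limma 3.58.1 (voom and log2 FPKM), other scalings and filters, a replicate block, assumed spreads, a fold threshold and each library left out. Genes, lists and naming rule were chosen with earlier results of these data known. Values are given for the 3 called genes of each role with the largest absolute change and the most abundant gene of each role. They are also given for genes called with at least a 1.5-fold change and for the main enzymes. Related-gene shares and sequence matches were chosen after the data were seen. The values of 1 decay gene are not reported here, though it is included in the counts.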

Additional observations from a re-analysis of the deposited data

How the results depend on the processing

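Of the 69 genes 23 were higher and 18 lower. Over 13 other settings with an estimated spread (other tools, scalings, filters, FPKM, a stricter adjusted p, a replicate block and the length correction) these counts ran from 17 to 25 and from 15 to 20, and over fits without each library from 19 to 22 and from 15 to 19, with 8694 to 8847 of all genes called. With an assumed biological coefficient of variation of 20%, 3361 of all genes, 3 genes of the machinery higher and 1 lower were called. With 40%, these were 774, 0 and 0 by edgeR's likelihood ratio test, where 0 of the 69 had an unadjusted p under 0.05. Against a change of 1.2-fold (glmTreat), they were 5176, 5 and 8. Smg1 and Zfp36l1 changed sign with the length trend removed, to 0.019 and -0.010 on the log2 scale, and the cause was not tested. Scaling moved the median of all genes by at most 0.03 on the log2 scale. Libraries with the same replicate number did not deviate together (correlations of -0.02, -0.02 and -0.06). With 3 libraries a group, this check cannot exclude that equal numbers mark shared handling. The replicate block gave 24 higher and 18 lower, and Cnot8 was the gene gained (log2 fold change 0.16, adjusted p = 0.0407). Limma on log2 FPKM also called Exosc5, Lsm1 and Lsm5, and upper-quartile scaling or library totals also called Cnot8 and Lsm1. Zfp36l3 had 0 to 2 counts a library and was not tested.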
